A study of Solanum lycopersicum with 2 samples.

Results

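Reference genes that serve as internal controls in tomato expression work were followed in leaves with and without a short heat stress. They were chosen by identifier, from a list of commonly used reference genes, and not by their measured values. Earlier results of these data were known when the list was chosen. The list has 10 genes, and all 10 were found among the 24915 gene models that appear in at least 1 of 2 libraries. They are 2 actins (Solyc03g078400 and Solyc11g005330), EF1-alpha (Solyc06g005060), ribosomal protein L2/L8 (Solyc10g006580), UBI3 (Solyc01g056940), cytosolic GAPDH (Solyc05g014470), TIP41 (Solyc10g049850), CAC (Solyc08g006960), SAND (Solyc03g115810) and Expressed (Solyc07g025390). The names come from that list. The deposited files carry identifiers only, so the names could not be checked there.

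Both libraries came from young leaves of 8-week-old Solanum lycopersicum plants of the cultivar Moneymaker, raised in a glasshouse with a 16 h day at 24°C and an 8 h night at 20°C. The first library is labelled only as control. The second, called heated leaves below, came from plants placed in a growth chamber at 120 μmol m-2 s-1 of light, kept for 1 h at 39°C and sampled after 1.5 h of recovery at 24°C. The labels give neither the number of plants behind a library nor whether control plants also went into the chamber. Massive analysis of cDNA ends (MACE) was used, a method that reads only the 3' end of each poly-A transcript. A transcript gives 1 read, so levels in RPM (reads per 1000000 mapped reads) can be set beside each other between genes without a term for transcript length.

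A reference gene is used in quantitative PCR to express other transcripts as a ratio to one that should not move. Any change in the reference is carried, inverted, into every ratio. Older choices are housekeeping genes of the cytoskeleton, translation and glycolysis. TIP41, CAC, SAND and Expressed were put forward later for tomato because their levels varied little over development. Heat is a demanding setting for such genes, since plant cells under heat stress slow general translation and shift transcription toward chaperones.

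Mapped reads numbered 11534512 for control leaves and 13857252 for heated leaves, so 1 read was worth 0.0867 and 0.0722 RPM. The median ratio of RPM over the 11271 models whose mean level reached 5 RPM was 1.08, a shift of 0.11 on the log2 scale. Each gene below is therefore also given relative to that median. With 1 library per condition there was no test between conditions. All intervals are 95% exact intervals that cover counting error only and hold nothing on the spread between plants or preparations. The leaf label could not be checked against marker genes, because the identifiers are not paired with names in the sources used here.

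The 10 genes did not move together between the libraries. EF1-alpha, ribosomal protein L2/L8, UBI3, CAC and SAND were higher in heated leaves, by 1.21-fold to 1.41-fold. The actin on chromosome 3 and GAPDH had nearly the same level in both libraries. TIP41, Expressed and the actin on chromosome 11 were lower, and TIP41 had the lowest ratio, 0.525. The counting intervals of the ratio lay above 1 for 5 genes, below 1 for 3 (TIP41, GAPDH and the actin on chromosome 11) and included 1 for the actin on chromosome 3 and for Expressed.

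**Figure D1:**
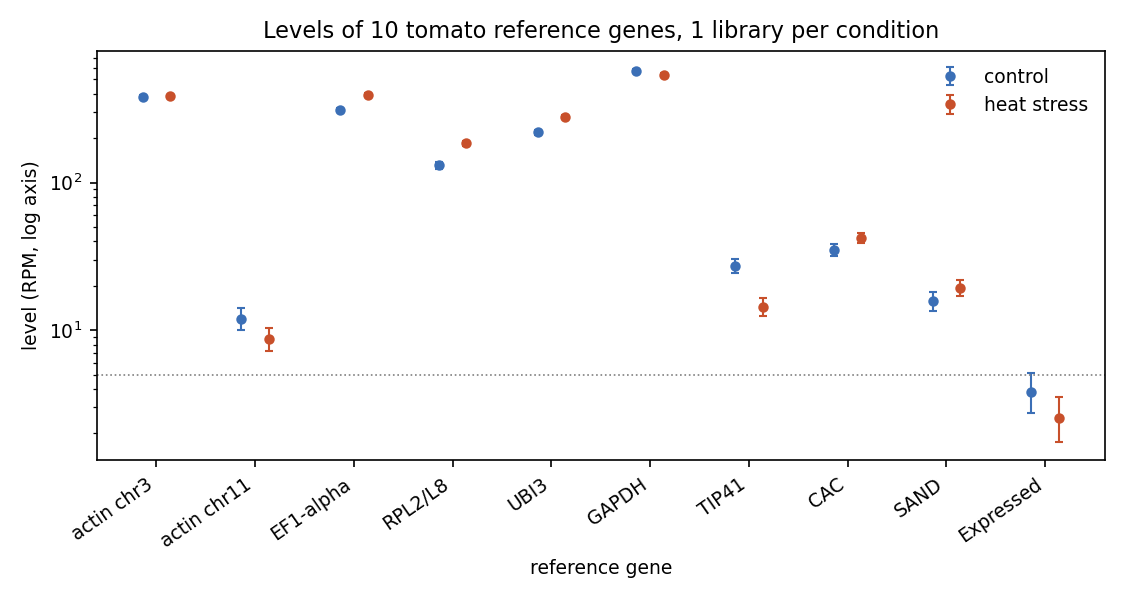
Level of each reference gene in RPM (log axis) in control leaves (blue) and heated leaves (orange), with 95% exact Poisson intervals; the dotted line marks the filter of 5 RPM. Levels run from 571 RPM for GAPDH to 3.84 RPM for Expressed in control leaves, and only Expressed has a mean under the line.

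The list spanned a wide range of abundance. In control leaves GAPDH was highest, followed by the actin on chromosome 3, EF1-alpha, UBI3, ribosomal protein L2/L8, CAC, TIP41, SAND, the actin on chromosome 11 and Expressed. GAPDH was 149 times Expressed in control leaves and 214 times Expressed in heated leaves. Of the 10 genes 6 kept their place in this order. EF1-alpha and the actin on chromosome 3 changed places, as did TIP41 and SAND. Most neighbours in the order were separated by more than their counting intervals. The exceptions were SAND and the actin on chromosome 11 in control leaves, at 13.6 to 18.2 and 10.1 to 14.1 RPM, and EF1-alpha and the actin on chromosome 3 in heated leaves, at 381 to 402 and 374 to 395 RPM.

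Actin is the building block of the filaments of the cytoskeleton, and the plant genome holds several actin genes. The actin on chromosome 3 had 382.6 RPM in control leaves (371 to 394) and 384 RPM in heated leaves (374 to 395). Its ratio was 1.00 (0.965 to 1.05), the nearest to 1 of the 10 genes. Relative to the median ratio of all models it stood at 0.930 (0.894 to 0.968). Far scarcer was the actin on chromosome 11, at 11.9 RPM in control leaves (10.1 to 14.1) and 8.66 RPM in heated leaves (7.18 to 10.4). Its ratio was 0.726 (0.562 to 0.931), or 0.673 (0.521 to 0.863) relative to the median of all models. Between the actins the balance differed: the chromosome 3 gene was 32.1 times the chromosome 11 gene in control leaves and 44.4 times in heated leaves. That ratio between the actins was 1.38 times as large after heat (1.07 to 1.79), a value that no scaling of the libraries can alter. In bulk leaf RNA a lower level in each cell and fewer cells that express a gene cannot be told apart, here and for the genes below.

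The genes of the translation machinery, 3 in number, were all higher in heated leaves. EF1-alpha, the elongation factor that brings aminoacyl-tRNA to the ribosome, had 312 RPM in control leaves (302 to 322) and 392 RPM in heated leaves (381 to 402). Its ratio was 1.26 (1.204 to 1.31). UBI3, which encodes ubiquitin fused to a protein of the small ribosomal subunit, had 219 RPM in control leaves (210.5 to 228) and 278 RPM in heated leaves (269 to 287), a ratio of 1.27 (1.21 to 1.34). The balance between EF1-alpha and UBI3 hardly differed: their ratio to each other was 1.43 in control leaves and 1.41 in heated leaves, a change of 0.988-fold (0.925 to 1.06). Ribosomal protein L2/L8, a part of the large ribosomal subunit, had 131 RPM in control leaves (124 to 138) and 185 RPM in heated leaves (178 to 192). Its ratio of 1.41 (1.32 to 1.51) was the highest of the 10. The interval of EF1-alpha did not overlap it.

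All 3 translation genes belong to the most abundant of 5 equal classes of models, whose means begin at 57.7 RPM. The median log2 ratio in that class was 0.01. Within it 76.2% of models had a lower ratio than EF1-alpha, 77.3% a lower ratio than UBI3 and 84.0% a lower ratio than ribosomal protein L2/L8. The actin on chromosome 3 and GAPDH, of the same class, lay nearer its middle, at 49.3% and 41.1%. Relative to the median ratio of all models the translation genes remained higher, at 1.16 (1.11 to 1.21) for EF1-alpha, 1.18 (1.12 to 1.24) for UBI3 and 1.31 (1.23 to 1.395) for ribosomal protein L2/L8.

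GAPDH, the cytosolic enzyme of glycolysis that oxidises glyceraldehyde-3-phosphate, was the most abundant reference gene in both libraries. It had 571 RPM in control leaves (557 to 585) and 539 RPM in heated leaves (527 to 552). The ratio was 0.944 (0.913 to 0.976), so the difference was small and still larger than counting error. Relative to the median of all models it was 0.875 (0.846 to 0.904). GAPDH and the actin on chromosome 3 differed from each other by 1.06-fold between the libraries (1.01 to 1.12).

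**Figure D2:**
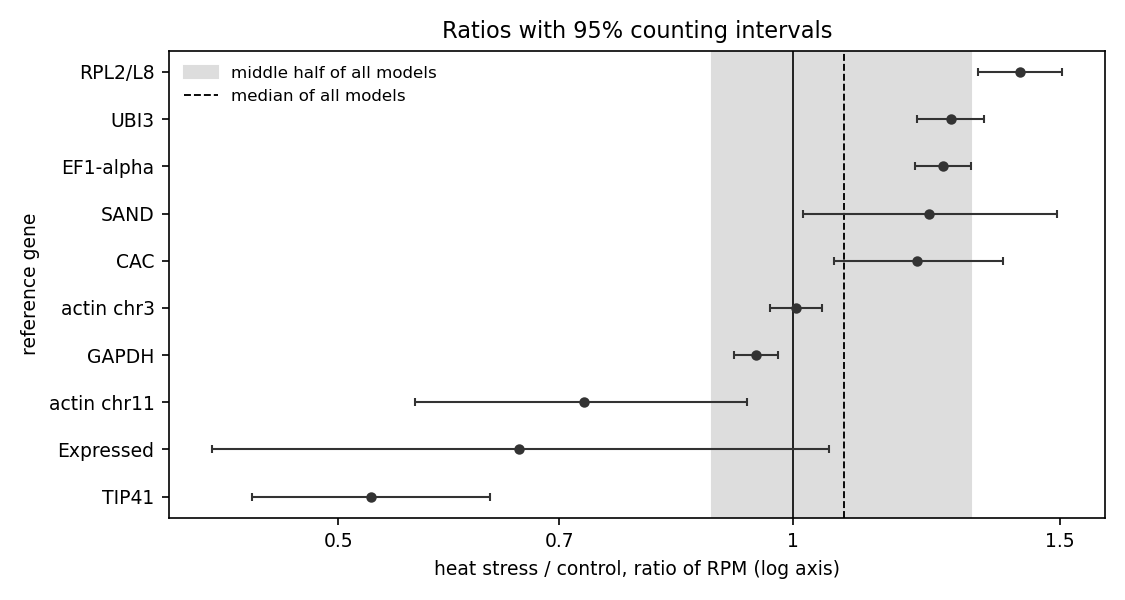
Ratio of RPM in heated leaves to RPM in control leaves (log axis) for each reference gene, with 95% conditional exact binomial intervals; the grey band is the interquartile range over all models that passed the filter (0.884 to 1.31) and the dashed line their median, 1.08. TIP41, Expressed and the actin on chromosome 11 lie to the left of the band and ribosomal protein L2/L8 to its right.

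The 4 genes proposed later spread over a range of 1.17 on the log2 scale, and the 6 older genes over 0.91. CAC, a subunit of a clathrin adaptor complex that acts in vesicle traffic, had 35.1 RPM in control leaves (31.7 to 38.6) and 42.4 RPM in heated leaves (39.0 to 45.9). Its ratio was 1.21 (1.06 to 1.38). SAND, a member of a family whose Saccharomyces cerevisiae relative Mon1 acts in membrane traffic to the vacuole, had 15.8 RPM (13.6 to 18.2) and 19.4 RPM (17.2 to 21.9). Its ratio was 1.23 (1.02 to 1.49). The next model in identifier order, on the opposite strand, was far more abundant, at 849 and 669 RPM (Solyc03g115820.2, named after its values were seen), and whether strand was used in counting is not stated. The ratio of CAC to SAND was 2.22 in control leaves and 2.18 in heated leaves, a change of 0.982-fold (0.778 to 1.24). That interval also includes changes past 1.2-fold in either direction. Relative to the median of all models CAC was at 1.12 (0.985 to 1.28) and SAND at 1.14 (0.941 to 1.38), the only genes of the list whose intervals then included 1.

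TIP41, named after a Saccharomyces cerevisiae protein of the TOR signalling pathway, had the lowest ratio of the list. It had 315.3 reads in control leaves and 199 in heated leaves, although the library of heated leaves was the deeper one. That is 27.3 RPM (24.4 to 30.5) against 14.4 RPM (12.4 to 16.5). The control value was thus 1.90 times the value after heat (1.59 to 2.28). Of all models past the filter 2.51% had a lower log2 ratio, and in its own abundance class 1.86% did. Relative to the median ratio of all models TIP41 was at 0.487 (0.406 to 0.584), just past 2-fold lower. On the deposited scale it stayed under that threshold, with a log2 ratio of -0.88 after a pseudocount of 1 RPM.

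Expressed, known only as an expressed sequence and with no function assigned here, was too scarce to serve as a firm point. It had 44.3 reads in control leaves and 35 in heated leaves, or 3.84 RPM (2.77 to 5.12) and 2.53 RPM (1.76 to 3.51). The ratio was 0.658, with an interval from 0.412 to 1.06 that includes both no difference and a 2-fold lower level. On the deposited scale a difference was therefore not detectable at this depth. Relative to the median ratio of all models Expressed was at 0.610 (0.382 to 0.978), and its ratio to 5 of the other genes (EF1-alpha, ribosomal protein L2/L8, UBI3, CAC and SAND) also differed between the libraries by more than counting error. Expressed was the only gene of the list below the filter of 5 RPM.

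The other 9 genes passed that filter. On the log2 scale with a pseudocount of 1 RPM, 5 of the 9 were higher by 1.2-fold or more after heat, against 34.1% of all 11271 models, and 2 were lower by as much, against 18.5%. None was at least 2-fold higher or lower, against 3.91% and 1.66% of all models. The genes within 1.2-fold were the actin on chromosome 3 and GAPDH, with log2 ratios of 0.01 and -0.08. CAC was barely past this small threshold, with a log2 ratio of 0.27 where 1.2-fold is 0.26. After scaling to the median ratio of all models 3 of the 9 were at least 1.2-fold from equal (the actin on chromosome 11, ribosomal protein L2/L8 and TIP41), against 50.5% of 11162 models. How flat the list looks therefore depends on the scaling. The median log2 ratio was 0.27 over the 9 genes past the filter and 0.10 over all models past it, and with Expressed included it was 0.14 over the 10 genes. The log2 ratios of the 10 genes ranged from -0.88 to 0.50.

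Ratios between reference genes do not depend on how the libraries are scaled, so they show the disagreement within the list directly. Among 45 pairs, 27 had ratios whose counting intervals did not overlap. That is the stricter criterion: the interval of the ratio within a pair excluded an unchanged ratio for 34 pairs. The heat-to-control change of the ratio within a pair was at least 1.2-fold for 33 pairs and at least 2-fold for 6, and 5 of these 6 included TIP41. The sixth was ribosomal protein L2/L8 with Expressed, which moved by 2.15-fold (1.33 to 3.44). The widest pair was ribosomal protein L2/L8 with TIP41, whose ratio went from 4.79 in control leaves to 12.9 in heated leaves. That is a change of 2.69-fold (2.22 to 3.26). EF1-alpha against TIP41 changed by 2.39-fold (1.98 to 2.88).

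The closest pairs lay among the 5 genes that were higher in heated leaves, a group that is defined by these same values. All 10 pairs among them were within 1.2-fold, and the largest difference was 1.17-fold (1.01 to 1.35), between ribosomal protein L2/L8 and CAC. The interval of the ratio within a pair excluded an unchanged ratio for 3 of the 10. These were ribosomal protein L2/L8 with EF1-alpha, with UBI3 and with CAC. A small difference within this group is a statement on their ratio to each other and not on the level of either. The mean absolute difference in log2 ratio to the other 9 genes was largest for TIP41, at 1.00, followed by Expressed at 0.71. It was smallest for the actin on chromosome 3 and CAC, at 0.42 each. Both lie in the middle of the list when it is ordered by ratio, where this mean is smallest and tied by arithmetic. Their tie is thus not a sign that they were the most stable genes.

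**Figure D3:**
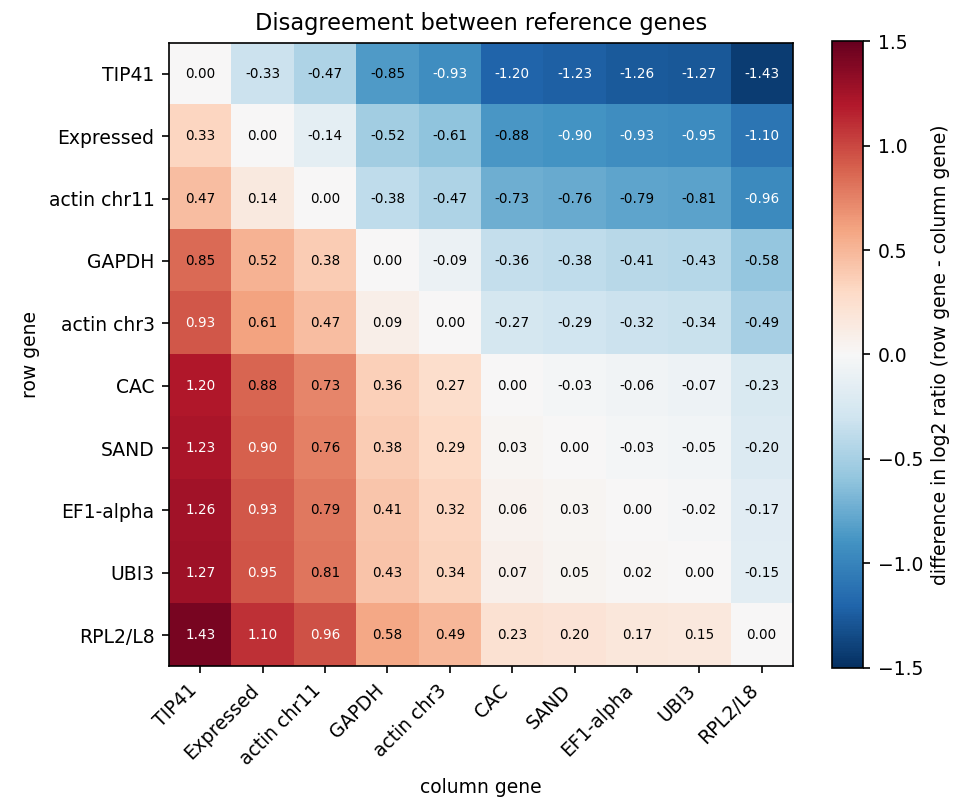
Difference in log2 ratio of RPM (heat stress to control) between each pair of reference genes, row gene minus column gene, with genes ordered by their ratio; red is a higher ratio in the row gene. The pale block at the lower right holds CAC, SAND, EF1-alpha, UBI3 and ribosomal protein L2/L8, and the darkest cells, at 1.43, are TIP41 with ribosomal protein L2/L8.

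The choice of reference gene decided how many models of the whole table were at least 2-fold higher or lower. With the deposited scaling to all mapped reads, 441 models were higher and 187 lower, so 70.2% of the calls were higher. Setting the geometric mean ratio of the 10 reference genes to 1 (it was 0.978) gave 468 higher and 171 lower models, with 73.2% higher. Scaling to the median ratio of all models gave 329 and 262, with 55.7% higher. The geometric mean rested in part on TIP41: without it the ratio was 1.05, between the deposited scaling and the median of all models.

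The geometric means of the older and the later genes lay on different sides of 1, but each set was itself split. Of the later genes CAC and SAND were higher after heat, at 1.21 and 1.23. TIP41 and Expressed were lower, at 0.525 and 0.658, and Expressed was below the filter. Of the older genes EF1-alpha, ribosomal protein L2/L8 and UBI3 were higher. GAPDH and the actin on chromosome 11 were lower, at 0.944 and 0.726. The 6 older genes had a geometric mean ratio of 1.08 and gave 329 higher and 259 lower models, almost the same as the median of all models. The 4 later genes had a geometric mean ratio of 0.847 and gave 829 higher and 89 lower models, with 90.3% higher. Leaving TIP41 out of the 10 gave 363 higher and 231 lower models, the widest move of any single omission, and leaving ribosomal protein L2/L8 out gave 541 and 136.

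Single genes gave far wider results. With TIP41 alone, 6210 models were at least 2-fold higher and 14 lower, so 49.6% of the models tested would be called higher. The filter of 5 RPM was applied after scaling, so the number of models tested also moved. It was 12525 with TIP41 alone and 10792 with ribosomal protein L2/L8 alone, against 11271 with the deposited scaling. Expressed alone gave 2575 and 35, and the actin on chromosome 11 alone gave 1613 and 46. All these counts use the point ratio and carry none of its counting error, which is large for scarce genes. The ratio of Expressed had an interval of 0.412 to 1.06, which includes the deposited scaling. That of the actin on chromosome 11 was 0.562 to 0.931. How far the counts move within these intervals was not tested. Ribosomal protein L2/L8 lay at the other end, with 161 higher and 833 lower models and 16.2% of the calls higher. With the actin on chromosome 3 alone the counts, 435 and 189, were close to those of the deposited scaling. With EF1-alpha alone, a common choice, they were 203 and 492, so lower models outnumbered higher ones.

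**Figure D4:**
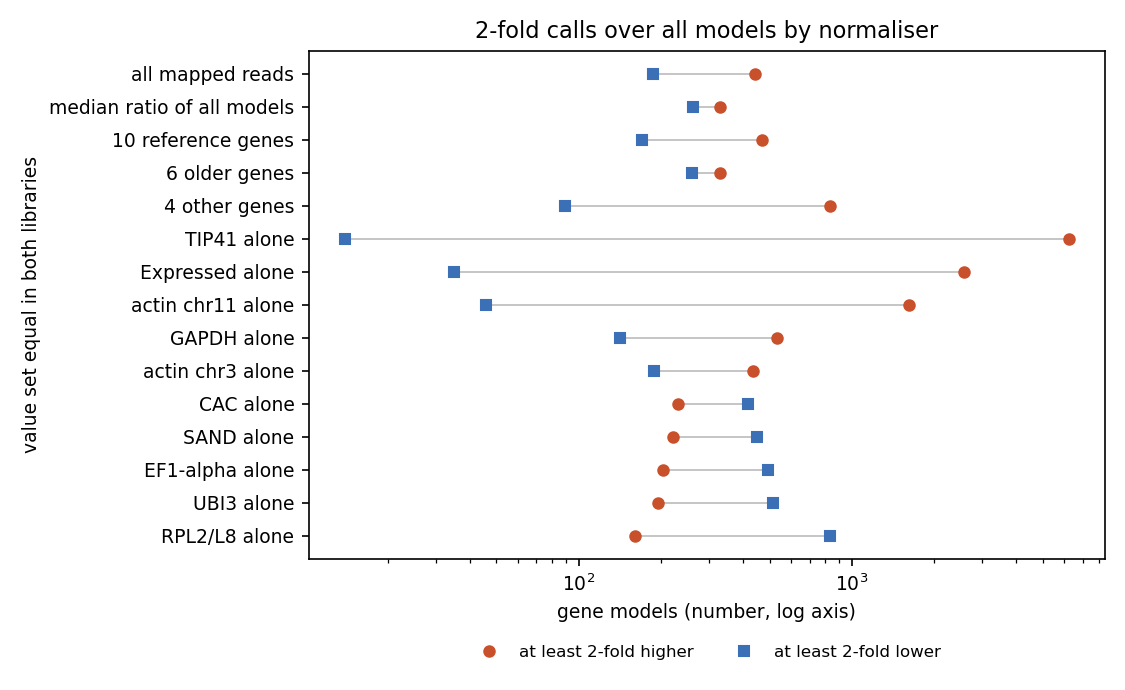
Number of gene models (log axis) at least 2-fold higher (orange circles) and at least 2-fold lower (blue squares) in heated leaves when the value named at the left is set equal in both libraries. Higher models range from 161 with ribosomal protein L2/L8 alone to 6210 with TIP41 alone, and lower models from 833 to 14. Counting error of the normaliser is not shown.

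The share of reads in the highest peak at the 3' end differed between the libraries by less than 3 percentage points for 9 of the 10 genes. The deposited height of each model's highest peak was set against the reads of that model. The share was between 22.5% (SAND) and 50.9% (the actin on chromosome 11) in control leaves. Models were compared where they passed the filter, had 100 reads or more in each library and a highest peak no larger than their reads. Over these 8945 models the median share was 25.4% in control leaves and 24.7% in heated leaves. Reads of TIP41, CAC and the actin on chromosome 11 were more concentrated than that, at 43.4%, 37.8% and 50.9% in control leaves and 43.2%, 35.3% and 49.2% in heated leaves. The share of TIP41 differed by -0.230 percentage points between the libraries, where its level differed by 1.90-fold. Over the 8945 models the interquartile range of this difference was -2.43 to 1.16 percentage points, and CAC, at -2.56, lay outside it. Intervals of scarcer genes were wide, at 42.1% to 59.3% and 39.9% to 58.4% for the actin on chromosome 11. A small change is therefore not shown for such genes.

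Expressed was the exception. Its highest peak held 12 of 44.3 reads in control leaves, 27.1% (15.0% to 42.8%), and 18 of 35 in heated leaves, 51.4% (34.0% to 68.6%). The intervals overlap, and the number of reads is small.

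**Figure D5:**
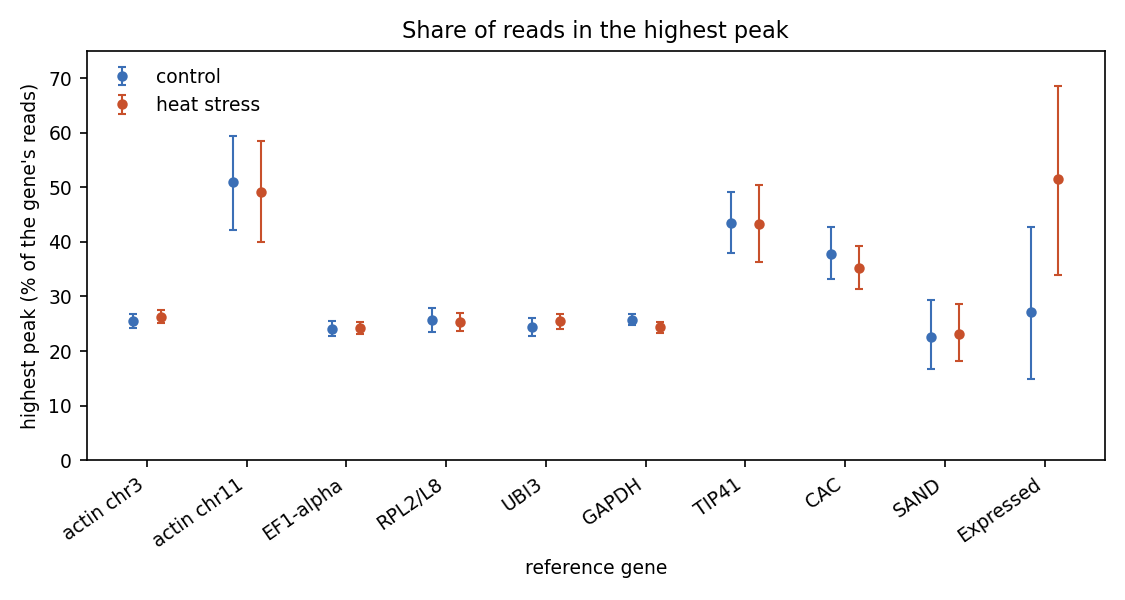
Share of each gene's reads in its highest peak, in percent, in control leaves (blue) and heated leaves (orange), with 95% exact binomial intervals on reads rounded to whole numbers. The shares of 9 genes lie within 3 percentage points of each other between the libraries, and that of Expressed goes from 27.1% to 51.4%.

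Reads were fractional in at least 1 library for 8 of the 9 genes past the filter and for Expressed, against 28.1% of all models past the filter. A single divided read is enough for this, so models with many reads can meet it more readily. The share among models of like abundance was not computed, so the contrast is not particular to reference genes on these values. A fraction arises where a read was divided between several locations, and the files do not give how many reads were divided. SAND alone had whole-number reads in both libraries. Actin, EF1-alpha, GAPDH and ubiquitin belong to gene families with close copies, so their values may include reads of other members or lack reads given to them. The part of divided reads in the differences above was not tested.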

How the data were processed

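RNA of 1 control and 1 heat-stress leaf library was profiled by MACE, in which, per the labels' protocols, the last 500 bp of poly-A transcripts were sequenced with 1 read per transcript. Per the submitters' processing notes FastQC was used; for aligner, build, annotation and strand setting, nothing is given in the sources used here. The authors deposited, per gene model, an estimated count of reads (not normalized, fractional where reads were divided), a count of mapped reads in total, and the height of the highest peak, a signal in reads. A column headed TPM equalled reads per 1000000 mapped reads within 3.42e-08, so these deposited values are RPM with no length term.

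From these, ratios of RPM with conditional exact binomial intervals, exact Poisson intervals (95%, reads rounded to whole numbers) and log2((heat-stress RPM + 1)/(control RPM + 1)) were computed with Python 3.11.15, scipy 1.17.1 and pandas 2.3.3. Counts over all models used a mean of at least 5 RPM, taken after any scaling of the heat-stress library. Intervals within pairs are conditional exact odds ratio intervals. To use genes as normalisers, the heat-stress library was scaled so that their geometric mean ratio of RPM was 1, without a pseudocount. Reads were called whole within 0.000001. A model absent from 1 file was set to 0 there. The calculations were tested on simulated data. No identifier of the list matched the 41476 genes of the reference table, so no names, positions or sequences were taken from it. All 10 genes are named whatever their values. The genes, the lists and the tests were chosen with earlier results of these data known. Depth was 11534512 and 13857252 mapped reads; at 5 RPM a value rests on 57.7 and 69.3 reads.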

Additional observations from a re-analysis of the deposited data

How the results depend on the processing

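With 1 library per condition the spread between replicates is unknown, and depth limits Expressed most. No paired analysis was possible because neither condition had a second library. Of 50 alternative log2 ratios of single genes (pseudocounts of 0.1 and 5 RPM, and scaling to reads inside gene models, to the median ratio or to the trimmed mean), 40 stayed within the half-width of the counting interval and 10 did not, 5 with each of the last 2 scalings. With both scalings these 5 were the most abundant genes: the actin on chromosome 3, EF1-alpha, ribosomal protein L2/L8, UBI3 and GAPDH. Their intervals were the narrowest. Staying within the half-width was easier for scarce genes and does not by itself show a stable value. Expressed stayed within it while going from -0.46 to -0.23 with a pseudocount of 5 RPM. None of the 8 ratios whose interval excluded 1 changed sign. The number of genes at least 1.2-fold from equal was 8 of 10, and was 5 with a pseudocount of 5 RPM, which shrinks the ratios of low genes, and 4 with the median ratio or the trimmed mean. The number at least 2-fold from equal was 0 in these settings, each with a pseudocount; the plain ratio of TIP41 relative to the median ratio was 0.487, past 2-fold. The median log2 ratio of 0.14 was 0.28 with only whole-number reads, which left SAND alone, so no range could be had there. The 468 higher and 171 lower models after scaling to the 10 genes became 285 and 103 with a pseudocount of 5 RPM and 266 and 111 with a filter of 20 RPM, both stricter by construction. Scaling to the 4 later genes gave 829 and 89, to the 6 older genes 259 lower, and to the median ratio 262 lower. Single genes gave 6210 and 14 (TIP41), 2575 and 35 (Expressed), 1613 and 46 (actin on chromosome 11), 232 and 416 (CAC), 221 and 451 (SAND), 203 and 492 (EF1-alpha), 196 and 516 (UBI3) and 161 and 833 (ribosomal protein L2/L8). The other counts, leaving out each gene in turn among them, stayed within 1.5 times. Scaling these counts to the median ratio and to the 9 genes past the filter was chosen after seeing the data.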

Other observations

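Pairs of reference genes, often used together as normalisers, still gave a wide spread of calls. Over the 45 pairs, the number of models at least 2-fold higher ran from 177 to 4163 and the number at least 2-fold lower from 24 to 661. The 4163 belongs to TIP41 with Expressed, the genes with the lowest ratios. Expressed was below the filter of 5 RPM, so the top of the range rests in part on a scarce gene.

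Next to SAND in identifier order lies Solyc03g115820.2 on the opposite strand, which was named after its values were seen. Its level was 849 RPM in control leaves and 669 RPM in heated leaves, a log2 ratio of -0.34, while SAND had 15.8 and 19.4 RPM and a log2 ratio of 0.28. Since the strand setting is unknown here, whether reads of one entered the other was not tested. SAND was not the only gene with a neighbour above its own level. The model after the actin on chromosome 11, Solyc11g005340.1 on the same strand, had 25.1 RPM in control leaves and 24.5 RPM in heated leaves. Solyc07g025400.2, after Expressed on the opposite strand, had 3.90 RPM in both. These models too were named after their values were seen, and sharing of reads with them was not tested. Of the 20 models directly before and after the reference genes, 0 had the same peak heights as the gene beside them in both libraries. Only 5 of the 20 had a mean of at least 5 RPM. Sharing of some reads need not make peak heights equal, so this count does not show whether reads were shared.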
